A study of Oryza sativa with 18 samples.

Results

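Chromosomes 11 and 12 of rice (Oryza sativa) begin with a stretch that is known from genome sequencing to be a shared segmental duplication, so that the ends of their short arms carry many genes in the same order. The open chromatin regions that lie below 3 Mb on these chromosomes are described here. They were chosen by position alone, as the regions whose midpoint lies below 3 Mb, and there were 452 of them among the 29978 regions of the series (1.51%). Chromosome 11 held 234 and chromosome 12 held 218. They are set beside the 844 regions with a midpoint from 3 to 9 Mb on the same chromosomes and the 2501 regions below 3 Mb on the other 10 chromosomes.

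The regions come from ATAC-seq, in which a transposase cuts into DNA that nucleosomes do not cover. Nuclei came from the second leaf of hydroponically grown 14-day-old plants of the variety Azucena, and 18 libraries fell into 9 groups of 2. Control plants stayed in liquid at 30 °C and were taken at 0.5, 2 and 4 h, and Heat plants were shifted to 40 °C for the same times. Heat recovery plants had 2 h at 40 °C and then 2 h at 30 °C, Dehydration plants had 2 h with roots in air, and Dehydration recovery plants had 1.5 h in air and then 2 h back in liquid. Every plant was grown at 30 °C before treatment. The deposited list of open regions covers the whole series and gives no value for any library. No treatment could therefore be compared with another, the depth is unknown, and no spread between replicates exists.

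Segmental duplications arise when a long stretch of a genome is copied, and the copies then diverge as sequence is inserted, lost or changed in each. In plants, accessible regions often lie beside genes and hold the promoters and enhancers to which transcription factors bind. A pair of duplicated ends therefore allows the arrangement of accessible sites to be compared between copies in the same nuclei. Such a comparison needs reads that can be assigned to their own copy. Whether they can be in these ends was not tested, and any filters on reads are not given. The file marks neither chromosome arms nor the limits of the duplication, so the description of these ends as duplicated short-arm ends is background and was not checked here. Sequences and genes of the regions were not analysed here.

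The ends of the chromosomes held nearly the same number of open regions. Chromosome 11 had 78.0 regions per Mb below 3 Mb, with an exact Poisson 95% interval of 68.3 to 88.7, and chromosome 12 had 72.7 per Mb, with an interval of 63.3 to 83.0. The ratio of 11 to 12 was 1.07, with an exact 95% interval of 0.889 to 1.30. All such intervals cover counting error only, and regions that cluster make them too narrow. Regions are parts of 1 pooled list and not replicates, so no p-value is given for any comparison.

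Neither end differed detectably in density from the neighbouring 6 Mb taken as a whole. From 3 to 9 Mb, chromosome 11 had 69.7 regions per Mb and chromosome 12 had 71.0. The density below 3 Mb was 1.12 times that from 3 to 9 Mb on chromosome 11 (exact 95% interval 0.95 to 1.32) and 1.02 times on chromosome 12 (0.865 to 1.21). On the other 10 chromosomes the same ratio ran from 0.843 on chromosome 3 to 1.54 on chromosome 5, with a median of 1.16. In regions per Mb below 3 Mb, chromosomes 12 and 11 stood 4th and 5th from the lowest of the 12 chromosomes, whose other members ran from 29.0 on chromosome 4 to 124.3 on chromosome 5.

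Over the whole of 3 to 9 Mb the ratio of 11 to 12 was 0.981, with an interval of 0.855 to 1.13. The parts from 3 to 6 and from 6 to 9 Mb differed more between the chromosomes than the ends did, in opposite directions. Between 3 and 6 Mb chromosome 11 had 208 regions and chromosome 12 had 274, a ratio of 0.759 with an interval of 0.631 to 0.912. Between 6 and 9 Mb the order was the other way, with 210 against 152, a ratio of 1.38 with an interval of 1.12 to 1.71. In the window from 3 to 9 Mb chromosome 12 holds a stretch of 722.6 kb without any region. With the longest empty stretch of each window taken out of its length, the ratio of the end to the inner part was 1.08 on chromosome 11 and 0.900 on chromosome 12. Set against 3 to 6 Mb alone, the end of chromosome 12 had 0.796 times the density. This lies below the interval of 0.865 to 1.21 of its ratio to 3 to 9 Mb. The likeness in density of this end to its inner part thus depended on the window.

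Along the ends, the counts of the chromosomes were alike in some stretches and not in others. In bins of 100 kb both ends held 1 region in the first bin and both had their fullest bin, of 18 regions, from 800001 to 900000. The bin from 2200001 to 2300000 was full on both, with 17 regions on chromosome 11 and 14 on chromosome 12. Between 1 and 2 Mb both were sparser, with 52 regions on chromosome 11 and 62 on chromosome 12, after 92 and 82 in the first Mb. From 2 to 3 Mb they held 90 and 74. On chromosome 11 a second bin, from 1500001 to 1600000, also held 1 region, where chromosome 12 held 7. From 1700001 to 1800000 the counts were 3 and 9, from 2800001 to 2900000 they were 16 and 7, and in the last bin they were 2 and 11. The plot of counts per 100 kb shows both profiles out to 9 Mb.

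**Figure D1:**
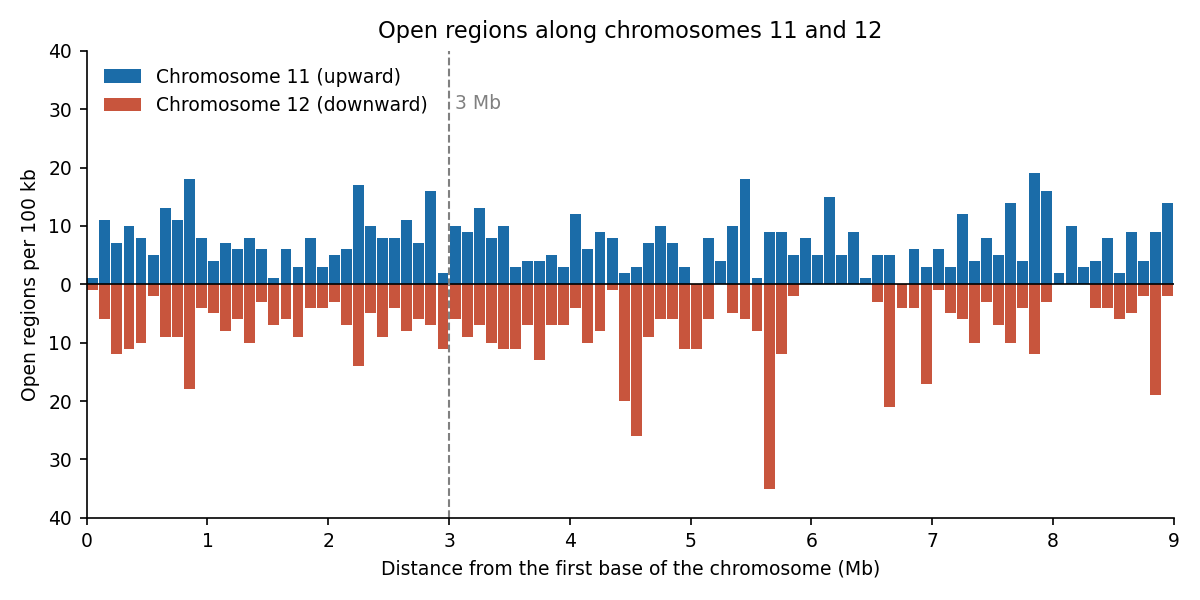
Open regions per 100 kb (vertical axis, a count) against the distance from the first base of the chromosome in Mb (horizontal axis), for chromosome 11 as bars upward and chromosome 12 as bars downward. Left of the dashed line at 3 Mb both have their highest bar, of 18 regions, in the same bin, and right of it the profiles part, with 35 regions in the highest bar of chromosome 12 against 19 on chromosome 11.

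The likeness of the profiles was measured by Pearson's r between the counts of the chromosomes in bins at the same distance from the first base, a measure chosen after the counts had been seen. Over 30 bins of 100 kb below 3 Mb r was 0.56 and Spearman's rho was 0.44. For the same pair of chromosomes r was -0.19 from 3 to 6 Mb and 0.08 from 6 to 9 Mb. For the other 65 pairs of chromosomes below 3 Mb r ran from -0.38 to 0.55 with a median of 0.04, and the pair of 11 and 12 was the highest of 66. Shifting the profiles against each other by up to 800 kb in either direction gave no r above 0.25 in 16 shifts. Neighbouring bins are not independent, and all bins come from 1 list, so these values describe the list.

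The bin size set how far the pair stood apart. With bins of 200 kb r was 0.73 over 15 bins and again the highest of 66 pairs, just above the 0.71 of chromosomes 5 and 8. With bins of 250 kb it was 0.72 and the 3rd highest, below the 0.88 of chromosomes 5 and 8. With bins of 50 kb it was 0.23 and the 7th highest, and rho was 0.05. The likeness also leaned on few bins. Without the 2 bins farthest from the median of chromosome 11, r with bins of 100 kb was 0.27, and for regions with a peak value of at least 16 alone it was 0.23.

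**Figure D2:**
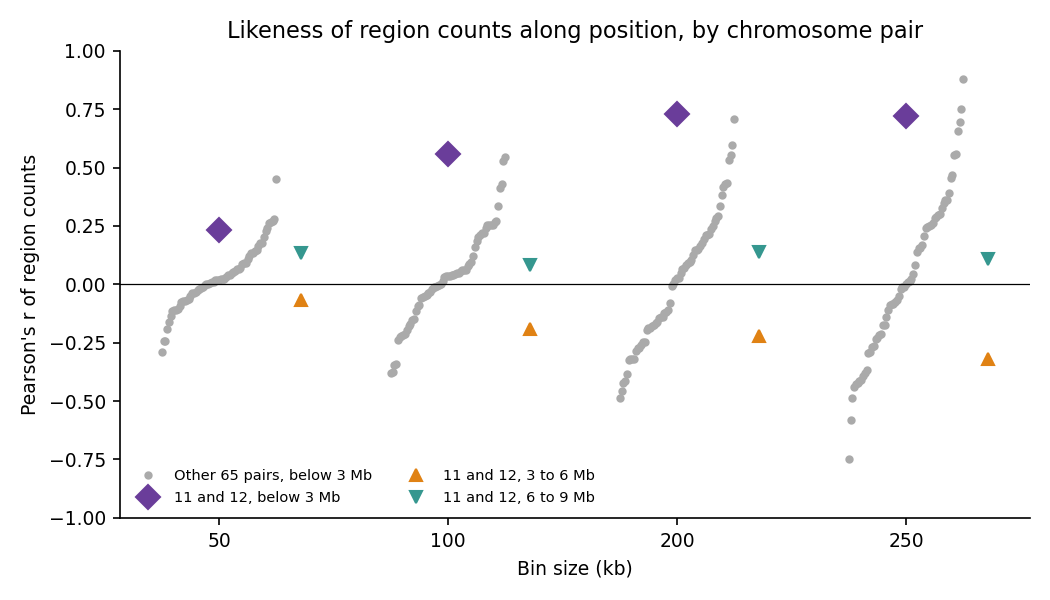
Pearson's r between the region counts of 2 chromosomes in bins at the same distance from the first base (vertical axis) for 4 bin sizes in kb (horizontal axis), with the pair of 11 and 12 below 3 Mb as diamonds, the other 65 pairs below 3 Mb as grey points in order of r, and the same pair from 3 to 6 and 6 to 9 Mb as triangles. The diamond is at the top of the points for bins of 100 and 200 kb and within them for bins of 50 and 250 kb, while the triangles lie between -0.32 and 0.14.

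The mean width and mean peak value of the regions did not follow each other in this way. Over 15 bins of 200 kb r between the chromosomes was -0.03 for the mean width and -0.03 for the mean peak value. Of the pairs of chromosomes that had a region in every bin, 45 in number, the pair of 11 and 12 stood 30th for both. The likeness was seen in the number of regions and not in these measures.

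A closer match would be groups of regions with the same spacing on both chromosomes. A region was called matched if it had a partner on the other chromosome and at least 2 further pairs within 20 kb kept the same offset to within 30 bp. Of the 452 regions 66 were matched, 33 on each chromosome, or 14.6%. With the order of 1 chromosome reversed, which keeps numbers and clustering, 36 regions were matched (7.96%). The excess of 30 over the reversed order compares with -33 to 28, and a median of -3, for the other 65 pairs of chromosomes. It rested on the settings. Under 8 others the excess ran from -18, at a tolerance of 60 bp, to 25, with support within 10 kb, and it was the highest of the 66 pairs under 1 of them, a tolerance of 15 bp, where it was 21. It was -3 after gaps under 150 bp had been closed and 0 for peak values of at least 16. From 3 to 6 Mb the pair of 11 and 12 gave 156 matched regions against 147 reversed, and from 6 to 9 Mb 95 against 101.

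Most of these matches did not lie at corresponding positions. The number of matched regions itself was the 42nd highest of 66. Among the 10 other pairs of chromosomes whose product of region counts was within 25% of theirs, the share matched ran from 9.43 to 22.3% with a median of 19.04%, above the 14.6% found here. Taken with the pairs that support them, some of which lack 2 supports of their own and are not matched, the matched regions formed 19 groups, 17 of 3 pairs and 2 of 4, with offsets between -1991 and 2034 kb. In 2 of the 19 groups the offset was within 100 kb. These held 14 regions, of which 10 were matched. Among the same 10 other pairs of chromosomes the number matched at such offsets ran from 0 to 10, with a median of 6. Some regions belonged to several groups, so the groups are not independent of each other.

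The first of the 2 groups at corresponding positions lay in the fullest bin of both chromosomes. On chromosome 11 its regions started at 805799, 822520, 822894 and 835851, and on chromosome 12 at 843835, 860570, 860911 and 873891, an offset of 38.0 kb. The middle 2 pairs were matched and the outer 2 support them. Their widths were 77, 72, 154 and 185 bp on chromosome 11 and 134, 76, 186 and 127 bp on chromosome 12. Their peak values were 13, 13, 15 and 14 on chromosome 11 and 15, 11, 16 and 14 on chromosome 12. The second group, singled out after its values were seen, had 3 regions between 2840971 and 2851527 on chromosome 11 and between 2927528 and 2938408 on chromosome 12, at an offset of 86.8 kb. The other group of 4 lay from 2196836 to 2210493 on chromosome 11 and from 205298 to 218964 on chromosome 12, positions that do not correspond.

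**Figure D3:**
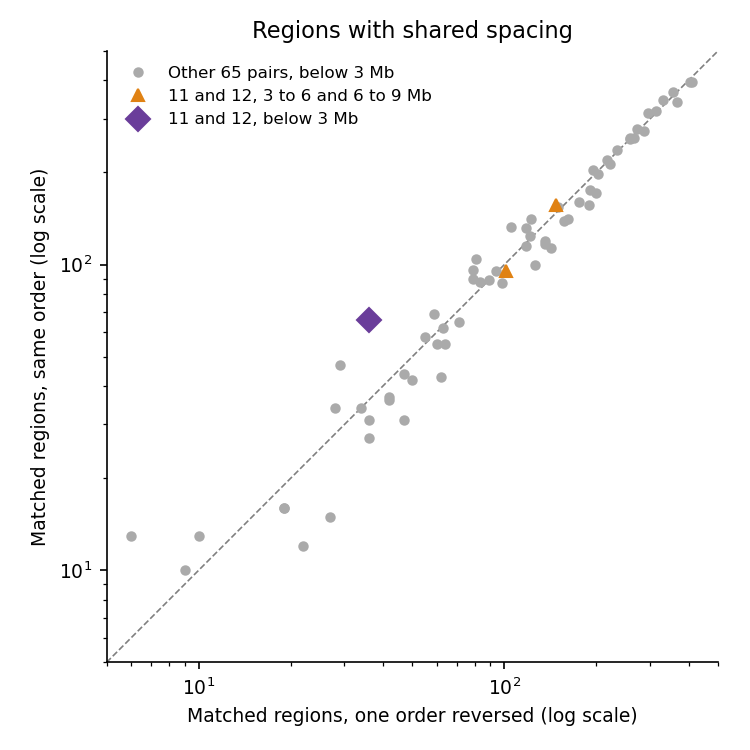
Number of regions below 3 Mb in matched groups for each pair of chromosomes, in the same order along both (vertical axis) and with the order of 1 chromosome reversed (horizontal axis), both on log scales, with the dashed line where they are equal. The pair of 11 and 12, the diamond, lies above the line at 66 against 36, an excess that turned to -18 at a tolerance of 60 bp, and its inner windows, the triangles, lie near the line.

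Some of the widest regions of the ends lay within 100 kb of each other in distance from the first base. On chromosome 11 the widest was 1655 bp, from 825579 to 827233, followed by 1255 bp from 307602 to 308856 and 1198 bp from 2011327 to 2012524. On chromosome 12 the widest was 1743 bp, from 1913375 to 1915117, followed by 1203 bp from 323560 to 324762 and 895 bp from 1911534 to 1912428. All 6 had the highest peak value, 18. The second widest of each lay 15.9 kb apart in distance from the first base. The widest of chromosome 12 and the third of chromosome 11 lay 97.7 kb apart, while within 100 kb of the widest region of chromosome 11 the widest on chromosome 12 had 790 bp. Other pairs of chromosomes and the inner windows were not compared in this way. How often wide regions lie this close elsewhere is therefore not known.

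The regions in the ends had smaller median widths than the list as a whole. The median width was 182.5 bp on chromosome 11 (quartiles 93.3 and 309 bp) and 188 bp on chromosome 12 (101 and 307 bp), against 206 bp for all 29831 regions on chromosomes. From 3 to 9 Mb the medians were 210 and 183.5 bp, so the end was narrower by 27.5 bp on chromosome 11 and wider by 4.5 bp on chromosome 12. Regions under 150 bp made up 40.6% of the end of chromosome 11 (exact 95% interval 34.2 to 47.2%) and 37.6% of that of chromosome 12 (31.2 to 44.4%). Their difference of 2.98 percentage points had an interval of -5.99 to 11.9. The regions covered 1.87% of the first 3 Mb on chromosome 11 and 1.77% on chromosome 12.

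Within each end the first Mb had the lowest median width. It was 151.5 bp on chromosome 11 and 169.5 bp on chromosome 12, the 6th and 27th lowest of the 358 bins of 1 Mb in the list that held at least 20 regions. The median then rose on both, to 185 and 178 bp from 1 to 2 Mb and to 199 and 253.5 bp from 2 to 3 Mb. On chromosome 12 the medians from 7 to 8 and 8 to 9 Mb, at 161 and 153.5 bp, were lower than in its first Mb. The 253.5 bp was the 351st of the 358 bins, near the top.

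Regions with high peak values made up a smaller share of both ends than of the parts further in. The peak value is a whole number from 10 to 18 that stands in the file with no definition, and its highest value equals the number of libraries. Regions at 18 made up 15.8% of the end of chromosome 11 (37 of 234, exact 95% interval 11.4 to 21.1%) and 23.9% of the part from 3 to 9 Mb (100 of 418, 19.9 to 28.3%). On chromosome 12 they made up 19.7% of the end (43 of 218, 14.7 to 25.6%) and 29.1% of the inner part (124 of 426, 24.8 to 33.7%). The difference between end and inner part was -8.11 percentage points on chromosome 11 (Newcombe 95% interval -14.1 to -1.63) and -9.38 points on chromosome 12 (interval -15.9 to -2.28). Between the ends of 11 and 12 it differed by -3.91 points, with an interval of -11.0 to 3.14 that includes 0.

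These were the largest such drops among the 12 chromosomes. On the other 10 the difference between the first 3 Mb and 3 to 9 Mb ran from -7.02 points on chromosome 9 to 4.54 points on chromosome 8, with a median of 0.841, and was below 0 on 4. The 15.8% on chromosome 11 was the lowest share of any first 3 Mb, just below the 16.1% of chromosome 4, while chromosome 12 stood 5th from the lowest. With a limit of 16 in place of 18, the share was 38.0% in the end against 52.4% further in on chromosome 11, and 41.7% against 51.2% on chromosome 12. The differences were -14.4 points (interval -22.0 to -6.39) and -9.43 points (interval -17.3 to -1.28), again beyond the other 10 chromosomes, where they ran from -7.53 to 4.56. The differences of single chromosomes were not tested against each other.

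**Figure D4:**
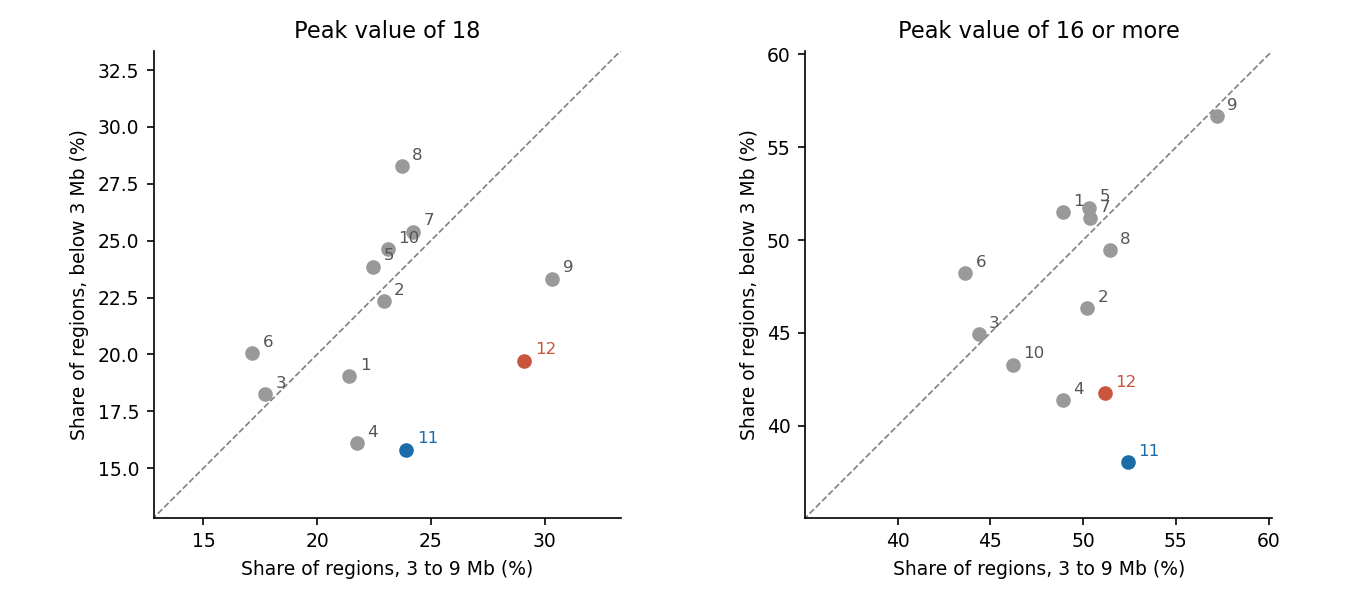
Share of regions with a peak value of 18 (left panel) and of 16 or more (right panel), in percent, below 3 Mb (vertical axis) against 3 to 9 Mb (horizontal axis), with 1 point for each chromosome and the dashed line where they are equal. Chromosomes 11 and 12 lie farthest below the line in both panels, at 15.8 against 23.9% and 19.7 against 29.1% on the left.

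Within the ends the share was lower in the first 2 Mb than from 2 to 3 Mb, beyond counting error on chromosome 11 alone. On chromosome 11 the share at 18 was 13.04% from 0 to 1 Mb, 5.77% (3 of 52 regions) from 1 to 2 Mb and 24.4% from 2 to 3 Mb. On chromosome 12 it was 14.6%, 17.7% and 27.0%. The first 2 Mb differed from the third by -14.0 points on chromosome 11 (Newcombe 95% interval -24.6 to -4.22) and by -11.1 points on chromosome 12 (interval -23.2 to 0.0977, which includes 0). In the 6 bins of 1 Mb from 3 to 9 Mb it lay between 21.5 and 25.3% on chromosome 11 and between 24.6 and 32.7% on chromosome 12, so that on both the first 2 bins lay below all 6. This was so on 0 of the other 10 chromosomes. The bin from 1 to 2 Mb on chromosome 11 was the 4th lowest of the 358 bins, whose median was 22.7%.

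The shares at the limit of 16 ran alike. On chromosome 11 the share at or above it was 34.8, 30.8 and 45.6% in the first 3 bins and between 46.2 and 58.2% from 3 to 9 Mb. On chromosome 12 it was 39.0, 38.7 and 47.3% and then between 45.2 and 55.1%. By this limit the first 2 bins lay below all 6 inner ones on chromosomes 2, 11 and 12. The plot of these shares shows both chromosomes low in the first 2 Mb, with intervals that overlap those of most inner bins.

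**Figure D5:**
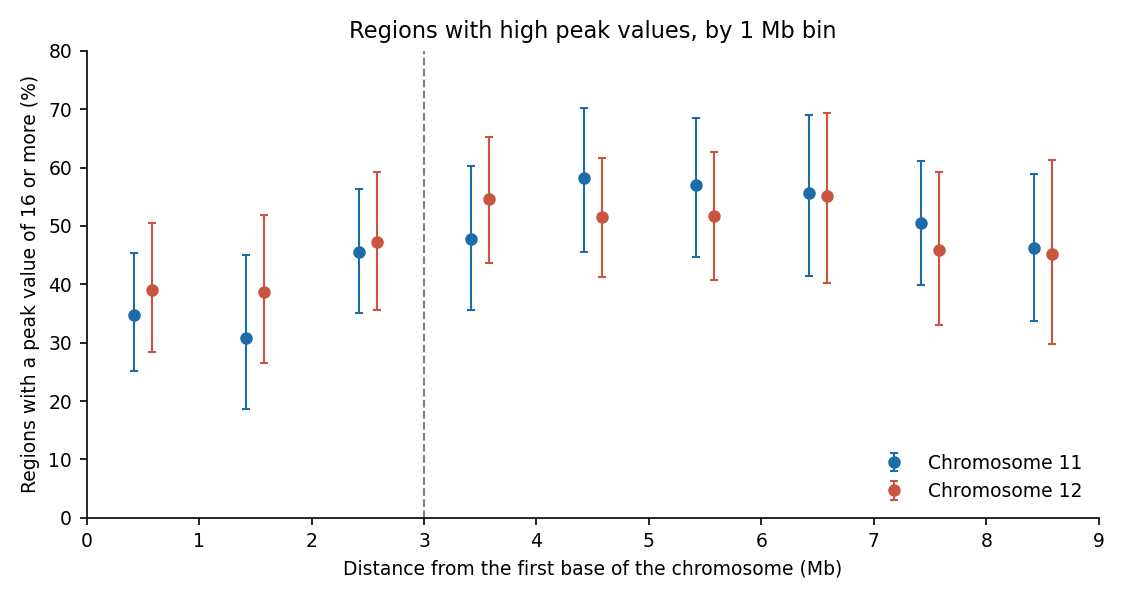
Share of regions with a peak value of 16 or more in percent (vertical axis) by 1 Mb bin, against the distance from the first base in Mb (horizontal axis), for chromosomes 11 and 12, with exact 95% binomial intervals as bars and the dashed line at 3 Mb. The first 2 bins of both lie between 30.8 and 39.0%, below every bin from 3 to 9 Mb, and the third bins lie at 45.6 and 47.3%.

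Per Mb, the number of regions with a peak value of at least 16 did not differ detectably between end and inner part. For regions at 18 alone, a difference in density was not tested. Such regions numbered 37 below 3 Mb and 100 from 3 to 9 Mb on chromosome 11, and 43 and 124 on chromosome 12. Regions at a peak value of 13 were denser in both ends. Regions of at least 16 were 0.813 times as dense below 3 Mb as from 3 to 9 Mb on chromosome 11 (exact 95% interval 0.628 to 1.04) and 0.835 times on chromosome 12 (0.646 to 1.07). Regions at 13 were 1.57 times as dense on chromosome 11 (1.03 to 2.37) and 1.65 times on chromosome 12 (1.05 to 2.60). This class was picked after the values of all classes had been seen, which the intervals do not allow for. The class at 13 held 18.8% of the end of chromosome 11 and 17.4% of that of chromosome 12, against 13.4 and 10.8% further in. At 12 or less the ends held 11.1 and 9.17%, against 7.66 and 11.7%, so the lowest classes were not raised on both.

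Wide regions have high peak values in this list, and Spearman's rho between width and peak value was 0.81 in each end, so the shares were also set side by side within classes of width. Among regions of 300 to under 500 bp the share at 18 was 34.9% (15 of 43) in the end of chromosome 11 and 51.2% (43 of 84) further in, and on chromosome 12 it was 51.3% (20 of 39) and 61.3% (49 of 80). Among regions of 150 to under 300 bp it was 8% and 8.57% on chromosome 11 and 7.59 and 22.7% on chromosome 12. Of the regions of at least 500 bp, 76.2% (16 of 21) and 83.3% (15 of 18) in the ends were at 18, against 84.6 and 80.4% further in. Under 150 bp few regions were at 18. They were 0 of 95 in the end of chromosome 11 and 1 of 142 further in, and 2 of 82 and 4 of 163 on chromosome 12. In the 3 classes from 150 bp up, the share was lower in the end in all 3 on chromosome 11. On chromosome 12 it was lower in 2 of the 3. The exact intervals overlap except for 150 to under 300 bp on chromosome 12. There they nearly touch, at 2.84 to 15.8% against 15.9 to 30.8%. Width did not differ alike on the chromosomes, as its medians above show.

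By a limit of 1000 bp, a smaller share of neighbouring regions stood close together in the ends. Gaps under 1000 bp were 22.3% of 233 gaps on chromosome 11 (exact 95% interval 17.1 to 28.2%) and 22.6% of 217 on chromosome 12 (17.2 to 28.7%), against 30.5 and 30.1% from 3 to 9 Mb. The differences were -8.14 points (interval -14.8 to -0.988) and -7.54 points (interval -14.3 to -0.222). The shares of the ends of 11 and 12 differed by -0.263 points, with an interval of -8.00 to 7.41. Here the ends were not set apart from other chromosomes, since the same difference ran from -8.33 points on chromosome 2 to 7.63 points on chromosome 5 among the other 10.

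The whole run of gaps was alike on both ends. The median gap was 6031 bp on chromosome 11 and 6422 bp on chromosome 12, against 3844 and 4265 bp further in. Both ends had 14 gaps under 150 bp and 23 of 150 to under 500 bp. Gaps of 4000 to under 8000 bp numbered 41 and 35, or 17.6 and 16.1%, against 9.35 and 12.9% further in. Gaps over 64 kb numbered 4 and 5 in 3 Mb, where the parts from 3 to 9 Mb had 22 and 11 in 6 Mb.

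Neither end held a large group of close regions. Joined over gaps under 1000 bp, the regions gave 43 groups on chromosome 11 and 35 on chromosome 12, of which 0 held 5 or more, where the parts from 3 to 9 Mb had 6 such groups each in 6 Mb, of up to 10 and 9 regions. The largest in each end held 4 regions. That of chromosome 11 ran from 2816489 to 2817923 with regions of 76 to 414 bp, and that of chromosome 12 from 1011006 to 1012549 with regions of 82 to 550 bp. In both, the peak values ran from 13 to 18. Regions with no neighbour within 1000 bp made up 59.4% of the end of chromosome 11 and 61.5% of that of chromosome 12, against 51.9 and 52.1% further in. Groups were counted on chromosomes 11 and 12 alone, and those of 5 or more were few.

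Each end opened with a single region and an empty stretch. On chromosome 11 the longest empty stretch was 130.7 kb, from 4359 to 135077, after a single region of 199 bp from 4160 to 4358. On chromosome 12 the longest was 84.0 kb, from 1012550 to 1096551, and it starts where the group of 4 regions named above ends. The next on chromosome 12 were 75.2 kb, from 1941117 to 2016322, and 72.04 kb, from 33791 to 105833, the latter after the first region of the chromosome, 94 bp wide. The next on chromosome 11 were 69.2 kb, from 2869431 to 2938588, and 67.8 kb, from 1484066 to 1551830. From 3 to 9 Mb, a window of 6 Mb, the longest were 186.5 kb on chromosome 11 and 722.6 kb on chromosome 12. Within single bins of 1 Mb the 130.7 kb of chromosome 11 was longer than the longest stretch in 5 of its 6 inner bins, which ran from 84.8 to 186.5 kb. Such bins leave out stretches that cross their borders. From 3 to 6 Mb taken whole, chromosome 11 had a longer one, of 163.2 kb.

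The limit of 3 Mb cut through no cluster. On chromosome 11 the last region inside it ran from 2970909 to 2971212 and the first outside from 3031821 to 3032024, both with a peak value of 17. On chromosome 12 the last inside ran from 2993140 to 2993736 with a peak value of 18 and the first outside from 3011829 to 3012157 with 17. The position of the peak within its region lay on the lower-coordinate side of its middle for 72.6% of the regions in the end of chromosome 11 and 72.9% of those on chromosome 12, against 77.8 and 75.1% further in.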

How the data were processed

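Alignment was with Bowtie2 2.2.3, per the submitters' processing notes. The build of the genome, the caller of the regions, any filters on reads and the pooling of libraries are not given in the sources used. The authors deposited 1 list of regions with start, end and 2 other values per region, max (here the peak value) and maxpos (here the position of the peak), on scales that neither file nor labels define. They were used as deposited, with 0 columns of per-sample values. In all 29978 rows the start and the width of the region equal the numbers in the identifier. Coordinates are 1-based and those of the file.

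Counts, shares and ratios have exact Poisson or Clopper-Pearson 95% intervals, and differences of shares Newcombe 95% intervals. Regions were named by rank: the 3 widest, the 3 longest empty stretches, the emptiest and fullest 100 kb bin, the largest group and the groups matched most. Bins of 1 Mb were ranked if they held at least 20 regions. The members, windows and measures were chosen with earlier results of these data known. The gene table at hand is of another assembly, and a planned comparison of proteins between the ends was not run. The matching and the intervals of counts and shares were tried on simulated data, but the intervals of ratios and the Newcombe intervals were not. The simulated lists placed unmatched regions uniformly at random. They therefore cannot tell how the matching behaves on regions that cluster, as those of the list do. Python 3.11.15, NumPy 2.4.6, pandas 2.3.3, SciPy 1.17.1 and matplotlib 3.10.9 were used.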

Additional observations from a re-analysis of the deposited data

How the results depend on the processing

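There were 82 alternatives over 16 results. Of these, 47 left the value within an interval around it (or a count within 1.5 times). Another 33 moved it further and 2 turned its direction. For median widths and for r between the profiles the interval is not one of counting error. For r it was wide. The 47 include falls of r from 0.56 to 0.35 with regions of at least 100 bp and to 0.27 without the 2 farthest bins. Keeping regions of at least 100 bp gave 56.3 and 55.3 regions per Mb on chromosomes 11 and 12, a median width of 234 bp on both, and 21.9 and 25.9% at 18. Keeping peak values of at least 16 gave 29.7 and 30.3 regions per Mb, median widths of 345 and 326 bp, 12.5 and 13.3% of gaps under 1000 bp, ratios of the end to the inner part of 0.813 and 0.835, and r = 0.23 between the profiles. In these the list is smaller by construction. Ending the window at 2 Mb lowered the share at 18 on chromosome 11 to 10.4%. Against 3 to 6 Mb alone the end of chromosome 12 had 0.796 times the density. Gaps under 500 bp were 15.9 and 17.1%, and gaps under 2000 bp 29.6 and 29.0%. At these limits no difference from the parts further in was computed. Bins of 50 kb gave r = 0.23 (the cause was not tested). The number of matched regions, 66, depended on nearly every setting. It was 25 and 134 at tolerances of 15 and 60 bp, 4 with 3 supporting pairs, 10 below 2 Mb, 23 with gaps under 150 bp closed, 12 with a minimum width of 100 bp and 0 with a minimum peak value of 16. Its excess over the reversed order, 30, became -18 at 60 bp and -3 with gaps closed, and was 4 with 3 supporting pairs, 4 below 2 Mb, 8 with the minimum width and 0 with the minimum peak value (the cause was not tested). The lower share at 18 in the ends kept its sign in the 8 alternatives, from -8.02 to -13.5 points on chromosome 11 and from -10.2 to -13.1 on chromosome 12. Those for this difference, the excess and the profiles were chosen after seeing the data. No paired analysis was possible because the list gives no value for any library, and for the same reason no replicate could be left out. Read depth is unknown.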
